A study of Mus musculus with 51 samples.

Results

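The 33 genes described here encode the mouse machinery that makes, senses, moves, stores and exports cholesterol, and their mRNA was followed through all 10 RNA-seq groups of a study of the testis-determining transcription factor DMRT1. They were taken by name from a count table of 55401 genes, and each name matched 1 row. By role, 18 were enzymes of synthesis, 5 were sensors and regulators of that synthesis, 4 take up or move cholesterol, 2 make or hydrolyse its esters, and 4 belong to export and its nuclear receptors. Whole gonads at postnatal day 28 (P28) were Dmrt1 +/+, +/-, -/- or R111G/+, and gonads at P3 were +/-, -/-, R111G/+ or R111G/-, with 3 libraries in each group. R111G is a point mutation in the DNA-binding domain of DMRT1, and the line came from 1 founder animal. Isolated Sertoli cells, the somatic support cells of the seminiferous tubule, were taken at P7 from Dmrt1 f/f (mutant) or f/+ (control) mice, and both groups also carried CAG-Stopflox-tdTomato and Dhh-Cre, a recombinase active in Sertoli cells. The controls were thus left with 1 working allele in recombined cells, although their titles call them +/+. All mice were of a mixed 129Sv and C57Bl/6J background. Digestion for the Sertoli cells used tubules pooled from 2 mice in a tube. No label says which animal or pool gave which library, so the p-values measure the spread between these libraries.

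Cells build cholesterol from acetyl-CoA through mevalonate, isoprenoid and squalene intermediates, and close and trim the sterol ring in the last steps. When sterol in the endoplasmic reticulum runs low, SCAP escorts the membrane-bound factors SREBP1 and SREBP2 to the Golgi, where they are cut free to enter the nucleus and activate synthesis genes, while INSIG proteins hold SCAP back when sterol is ample. Surplus cholesterol is esterified or exported, and the export pumps are targets of the oxysterol receptors LXRα and LXRβ. In the gonad, Leydig cells and ovarian theca and luteal cells draw on this cholesterol to make steroid hormones, and Sertoli cells supply lipid to germ cells and clear their remains.

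Levels are CPM, the counts of a gene relative to the size of its library, adjusted by trimmed mean of M values (TMM) over all 30 libraries, and library totals ran from 5043838 to 12792811 counts. Fold changes are log2 values, and a gene was called higher or lower when its adjusted p was below 0.05 and its change exceeded 2-fold. Dmrt1 itself was at 37.0, 47.7 and 40.8 CPM in P28 Dmrt1+/+ gonads and at 0.463, 0.425 and 0.171 CPM in P28 Dmrt1-/- gonads. It was at 39.1, 31.2 and 62.3 CPM in P28 Dmrt1+/- and 47.6, 73.1 and 71.1 CPM in P28 Dmrt1 R111G/+ gonads, and at P3 at 53.3, 81.7 and 69.0 CPM in Dmrt1+/-, 2.94, 2.12 and 3.32 CPM in Dmrt1-/-, 131, 106 and 147 CPM in R111G/+ and 61.8, 74.0 and 53.0 CPM in R111G/- gonads, where the count of a point-mutated transcript does not check the R111G labels. In P7 Sertoli cells it was at 175, 168 and 259 CPM in controls and at 24.7, 36.8 and 21.2 CPM in mutants. Cell type markers differed between genotypes at P28. The sum of 12 spermatid marker genes was 18419.6 to 21763 CPM in Dmrt1+/+, 16967, 21758 and 4688 CPM in Dmrt1+/-, 29.8 to 36.0 CPM in Dmrt1-/- and 636 to 875 CPM in Dmrt1 R111G/+ gonads, and the third Dmrt1+/- library thus stood apart. The sum of 8 Leydig cell markers was 1149.5 to 2787, 1779 to 3227, 10593 to 12526 and 7812, 3860.1 and 3819.5 CPM in the same order of groups. Of these 8, in Dmrt1-/- against Dmrt1+/+, 3 were called higher and 2 lower, with a median of 0.50. Hsd3b1, at 5519 to 6953 CPM, made up most of the Dmrt1-/- sum, while Insl3 was at 0.347 to 0.850 CPM in Dmrt1-/- and 8.96 to 42.9 CPM in Dmrt1+/+ gonads. Replicate 1 of the R111G/+ gonads was also the highest of all P28 libraries for 12 macrophage markers, at 2329 CPM against 939 to 1215 CPM in Dmrt1-/-. The sum of 10 granulosa cell markers was 4988 to 5238 CPM in Dmrt1-/- and 356 to 481 CPM in Dmrt1+/+ gonads at P28. It was 1793.9 to 2989.5 CPM in P3 Dmrt1+/- gonads and 1708 to 2774 CPM in P7 control Sertoli cells. The sum is thus not particular to ovarian cells. In these bulk samples, fewer cells of a type and less RNA per cell cannot be told apart.

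The promoters of the members were examined first, because sterol-regulated genes are known for short binding sites of SREBP, NF-Y and SP1 close to the start of transcription. RefSeq promoter sequences on GRCm38.p6, running from 250 bases before to 50 bases after a start site, were found for 26 members. Fdft1, Fdps, Sqle, Scarb1, Abcg1, Npc1 and Stard4 had no such sequence and were not searched. The CCAAT box bound by NF-Y (letters CCAAT, on both strands) occurred in 20 of the 26, against 41.1% of all 27025 genes with a promoter of that length. Of the 15 synthesis genes searched, 14 held a box. The SP1 letters GGGCGG occurred in 23, against 38.2%. The sterol response element core TCACNCCAC was found in 1 member, Hmgcs1, against 1.44% of genes. The letters CAAGGTCA of the NR5A orphan receptors were found in 1, Dhcr7, against 1.76%, and neither the cAMP response element TGACGTCA (2.03% of genes) nor the DMRT core TACANTGT (3.09%) was found in any. A gene with several listed starts counts once, and none of the searched motifs contains another in full. The 4 stretches shown here, outside annotated exons, run 5′ to 3′ with CCAAT or its reverse complement and, in Hmgcs1, the sterol response element core in capitals. Hmgcs1 carries the core. Hsd17b7 showed the highest fold change of the set at P28, Mvk has the most boxes, and Acat2, which was lower in P7 mutant cells, has none.
Hmgcs1 (chr13:119690101-119690350, strand +): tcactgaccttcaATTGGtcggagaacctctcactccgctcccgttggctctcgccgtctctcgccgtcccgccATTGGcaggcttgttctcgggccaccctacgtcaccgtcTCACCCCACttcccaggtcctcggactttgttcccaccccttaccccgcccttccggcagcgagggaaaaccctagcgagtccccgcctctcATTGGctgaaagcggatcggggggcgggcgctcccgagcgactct
Hsd17b7 (chr1:169969242-169969405, strand -): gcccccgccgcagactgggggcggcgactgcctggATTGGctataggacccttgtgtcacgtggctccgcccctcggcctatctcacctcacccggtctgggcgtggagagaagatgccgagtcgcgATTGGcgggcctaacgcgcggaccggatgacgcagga
Mvk (chr5:114444069-114444268, strand +): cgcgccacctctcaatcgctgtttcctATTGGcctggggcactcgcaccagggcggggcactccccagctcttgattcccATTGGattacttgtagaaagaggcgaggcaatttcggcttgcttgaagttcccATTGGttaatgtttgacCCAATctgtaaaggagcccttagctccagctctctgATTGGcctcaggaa
Acat2 (chr17:12960748-12960925, strand -): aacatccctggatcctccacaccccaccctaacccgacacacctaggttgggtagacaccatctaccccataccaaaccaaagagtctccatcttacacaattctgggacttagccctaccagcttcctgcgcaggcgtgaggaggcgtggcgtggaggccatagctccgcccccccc
In Hmgcs1 the boxes begin at bases -237, -176 and -45, counted so that -1 is the last base before the start site, and the core begins at -137. In Mvk the 5 boxes begin at -173, -120, -67, -50 and -14. Of the 20 members with a promoter that were called higher in P28 Dmrt1-/- than in Dmrt1+/+ gonads, 18 held a CCAAT box and Scap and Abca1 did not. Of the 6 with a promoter that were not called higher, Idi1 and Insig2 held a box and Acat2, Lipe, Nr1h2 and Nr1h3 did not. Against Dmrt1+/-, 15 of 17 called higher and 5 of 9 not called higher held a box, and in Dmrt1 R111G/+ against Dmrt1+/- these were 9 of 11 and 11 of 15. The share with a box among all genes called or not called was not computed. A match of these letters is a description of the window and not a binding site.

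At P28, most of the set was higher in gonads without DMRT1 relative to the whole transcriptome (TMM scaling), and these calls were lost or reversed with scaling on somatic marker genes. With TMM, 25 of the 33 genes were called higher and 2 lower in Dmrt1-/- than in Dmrt1+/+ gonads, where 26.1% of the 20952 genes tested were called higher and 40.5% lower. The median log2 fold change was 1.65 for the set and -0.31 for all genes tested. Against Dmrt1+/- gonads, 20 were called higher and 1 lower, where the shares of all genes were 19.8% and 38.7%, and the medians were 1.19 and -0.28. Dmrt1 R111G/+ gonads compared with Dmrt1+/- had 13 members called higher and 2 lower, against 6.72% and 28.1% of genes, with medians of 0.91 and -0.17. The first 2 comparisons share the Dmrt1-/- libraries, and the last 2 share the Dmrt1+/- libraries. When libraries were scaled instead on 35 macrophage, endothelial, myoid and stromal marker genes, no member was called higher in Dmrt1-/- gonads, and 12 and 9 were called lower against Dmrt1+/+ and Dmrt1+/-, where 2.18% of all genes were called higher and 78.5% lower against Dmrt1+/+, and 2.18% and 75.2% against Dmrt1+/-. In Dmrt1 R111G/+ against Dmrt1+/-, 0 members were called higher and 3 lower, against 0.377% and 47.6% of genes. That scaling moved the median of all genes to -2.71 and -2.17, and the set's median minus that of all genes was 2.00 and 1.50, beside 1.96 and 1.47 with TMM. A change of scaling shifts all genes of a comparison by nearly the same amount. This difference was therefore bound to stay nearly the same and does not test the calls. The values that follow are with TMM and stand relative to the whole transcriptome of each gonad. Many marker genes of other cells moved with the same groups. In Dmrt1-/- against Dmrt1+/+, all 12 spermatid and 11 spermatocyte markers were called lower, and 9 of 9 endothelial, 9 of 9 stromal, 9 of 10 granulosa and 11 of 12 macrophage markers higher. The 5 myoid markers, also among the scaling genes, summed to 253.5 to 358.5 CPM in Dmrt1+/+ and 220.0 to 329.6 CPM in Dmrt1-/- gonads. The 9 endothelial markers summed to 50.2 to 67.0 and 555.5 to 639.1 CPM in the same order. The 9 stromal markers summed to 560.4 to 873.3 and 4721 to 5643 CPM. The 35 scaling genes thus did not move alike. In Dmrt1 R111G/+ against Dmrt1+/-, the 12 spermatid markers were called lower, and 12 of 12 macrophage and 5 of 9 stromal markers higher. The 12 macrophage markers summed to 263 to 490.0 CPM in Dmrt1+/+, 389 to 622 in Dmrt1+/-, 939 to 1215 in Dmrt1-/- and 918 to 2329 in Dmrt1 R111G/+ gonads. No macrophage, spermatid, endothelial or stromal marker was at 0 in all 3 libraries of any of these groups. The part of these cells in the results was not tested.

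**Figure D1:**
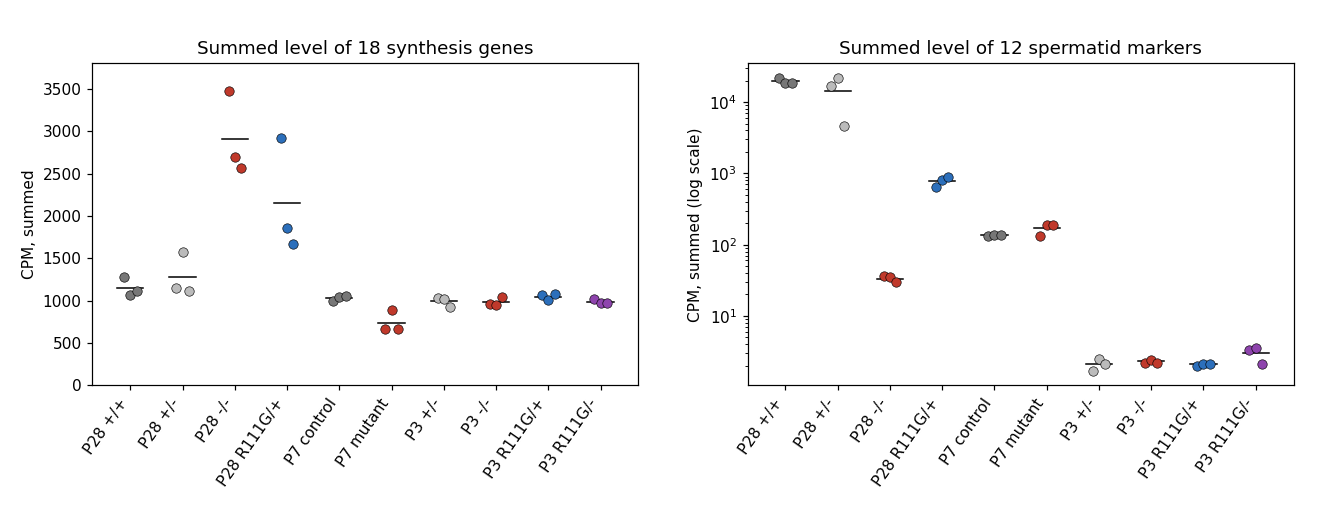
Summed CPM of the 18 synthesis genes (left, linear axis) and of 12 spermatid markers (right, log axis) in each of the 30 libraries (points) with group means (lines). The synthesis sums ran from 1067 to 1276 CPM in P28 Dmrt1+/+, 2568 to 3476 in P28 Dmrt1-/- and 1673 to 2915 in P28 Dmrt1 R111G/+ gonads, and from 668 to 888 in P7 mutant and 1000.1 to 1057 in P7 control cells, all on TMM scaling, and with somatic marker scaling no synthesis gene was called higher in P28 Dmrt1-/- gonads.

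The first steps of synthesis lead from acetyl-CoA to isoprenoids. Hmgcs1, which makes HMG-CoA, was at 249.9, 174 and 212 CPM in Dmrt1+/+, 259, 349.9 and 241 CPM in Dmrt1+/-, 938, 729 and 669 CPM in Dmrt1-/- and 607, 386 and 349 CPM in Dmrt1 R111G/+ gonads. All 3 Dmrt1-/- libraries were above every library of the other groups, and the log2 fold change was 1.91 ± 0.25 (SE, adjusted p = 8.4e-06) against Dmrt1+/+ and 1.46 ± 0.24 (SE, adjusted p = 0.000103) against Dmrt1+/-. Mvk, the kinase that phosphorylates mevalonate, was at 5.30, 4.67 and 3.98 CPM in Dmrt1+/+, 6.90, 6.62 and 8.90 CPM in Dmrt1+/- and 22.7, 21.8 and 21.5 CPM in Dmrt1-/- gonads, a change of 2.27 ± 0.26 against Dmrt1+/+ and 1.55 ± 0.24 against Dmrt1+/-. Pmvk and Mvd carry out the next steps, with changes of 1.11 and 1.96 in Dmrt1-/- against Dmrt1+/+, both called, and 0.91 and 1.45 against Dmrt1+/-, where only Mvd was called. Idi1, the isopentenyl diphosphate isomerase, and Acat2, a cytosolic thiolase that joins acetyl-CoA units, missed the 2-fold limit in both, at 0.93 and 0.76 against Dmrt1+/+ and 0.89 and 0.23 against Dmrt1+/-. Fdps, which makes farnesyl diphosphate, was called in both, at 1.10 and 1.19. Acat2 lies beside a close paralog, Acat3, and how reads shared by both genes were counted makes its value uncertain.

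Squalene is made and opened by the next enzymes. Fdft1, which joins farnesyl units to squalene and commits them to sterols, was at 239, 249 and 259.6 CPM in Dmrt1+/+, 191, 208 and 119.9 CPM in Dmrt1+/-, 175, 142 and 117 CPM in Dmrt1-/- and 83.5, 75.1 and 85.2 CPM in Dmrt1 R111G/+ gonads. It was the 1 synthesis gene with a called decrease at P28, at -1.07 ± 0.20 (SE, adjusted p = 0.00079) in Dmrt1 R111G/+ against Dmrt1+/-, and its changes in Dmrt1-/- gonads of -0.75 against Dmrt1+/+ and -0.26 against Dmrt1+/- were not called. That call was lost without Dmrt1+/- replicate 1, Dmrt1+/- replicate 2 or Dmrt1 R111G/+ replicate 1. Sqle, the squalene epoxidase, was at 130.0, 139 and 135 CPM in Dmrt1+/+ and 189.6, 161 and 145 CPM in Dmrt1-/- gonads, a change of 0.33 ± 0.18 (SE, adjusted p = 0.105).

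After the squalene step, ring closure and trimming follow. Lss, which closes the ring to lanosterol, was called higher in all 3 comparisons, at 1.65 in Dmrt1-/- against Dmrt1+/+, 1.34 against Dmrt1+/- and 1.37 in Dmrt1 R111G/+ against Dmrt1+/-. Msmo1, which removes the C4 methyl groups, was at 89.1, 46.4 and 56.0 CPM in Dmrt1+/+, 80.6, 131 and 97.4 CPM in Dmrt1+/-, 548, 381 and 393 CPM in Dmrt1-/- and 368, 262 and 198 CPM in Dmrt1 R111G/+ gonads. Its lowest Dmrt1-/- library lay above the highest library of every other group, and its log2 fold change was 2.82 ± 0.30 (SE, adjusted p = 1.67e-06) against Dmrt1+/+. Hsd17b7, a ketoreductase of the same demethylation complex, was at 20.4, 15.6 and 17.6 CPM in Dmrt1+/+, 21.3, 30.4 and 25.1 CPM in Dmrt1+/-, 143, 112 and 136 CPM in Dmrt1-/- and 88.0, 49.1 and 66.3 CPM in Dmrt1 R111G/+ gonads. Its change of 2.90 ± 0.23 (SE, adjusted p = 9.58e-08) in Dmrt1-/- against Dmrt1+/+ was the highest of the 33, and Dmrt1 R111G/+ libraries lay between the Dmrt1+/- and Dmrt1-/- ones without overlap. Nsdhl, the complex's dehydrogenase, was called in all 3 comparisons, at 1.95, 1.13 and 1.37. Tm7sf2, a sterol reductase, was likewise called, at 1.61, 1.31 and 1.56, but it overlaps Vps51 on the same strand and its counts are uncertain. Cyp51, the lanosterol demethylase, was called against Dmrt1+/+ only, at 1.02, and at 0.99 it just missed the fold limit against Dmrt1+/-. The call of Cyp51 against Dmrt1+/+ was lost without Dmrt1+/+ replicate 2 or Dmrt1-/- replicate 1, with no filter on low counts and with 2 groups only. Cyp51, Ebp, Fdps and Pmvk all lost their calls against Dmrt1+/+ with DESeq2 and with its size factors. Ebp and Pmvk lost them without Dmrt1+/+ replicate 3, and Fdps without Dmrt1-/- replicate 3. The final enzymes Ebp, Sc5d and Dhcr7 had changes of 1.10, 1.78 and 1.53 against Dmrt1+/+, all called, and of 0.41, 1.31 and 1.09 against Dmrt1+/-, where Ebp was not called. Sc5d was at 154, 126 and 111.3 CPM in Dmrt1+/+, 153, 218 and 159 CPM in Dmrt1+/-, 559, 401 and 354 CPM in Dmrt1-/- and 562, 273 and 224 CPM in Dmrt1 R111G/+ gonads. In Dmrt1 R111G/+ against Dmrt1+/-, Acat2 (1.31), Mvd (1.05), Fdps (1.18), Sc5d (1.01) and Dhcr7 (1.20) were also called higher. Leaving out Dmrt1+/- replicate 1 lost the calls of Mvd and Sc5d, and leaving out Dmrt1+/- replicate 3 or Dmrt1 R111G/+ replicate 1 lost that of Sc5d. The synthesis genes not called higher there were Hmgcs1 (0.68), Mvk (0.84), Pmvk (0.57), Idi1 (0.33), Sqle (0.02), Cyp51 (0.70), Ebp (0.98) and Fdft1. Of the 18 synthesis genes, 14 were called higher against Dmrt1+/+, 11 against Dmrt1+/- and 10 in Dmrt1 R111G/+ against Dmrt1+/-. With somatic marker scaling none was, and 8 of the 18 were called lower in Dmrt1-/- against Dmrt1+/+.

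**Figure D2:**
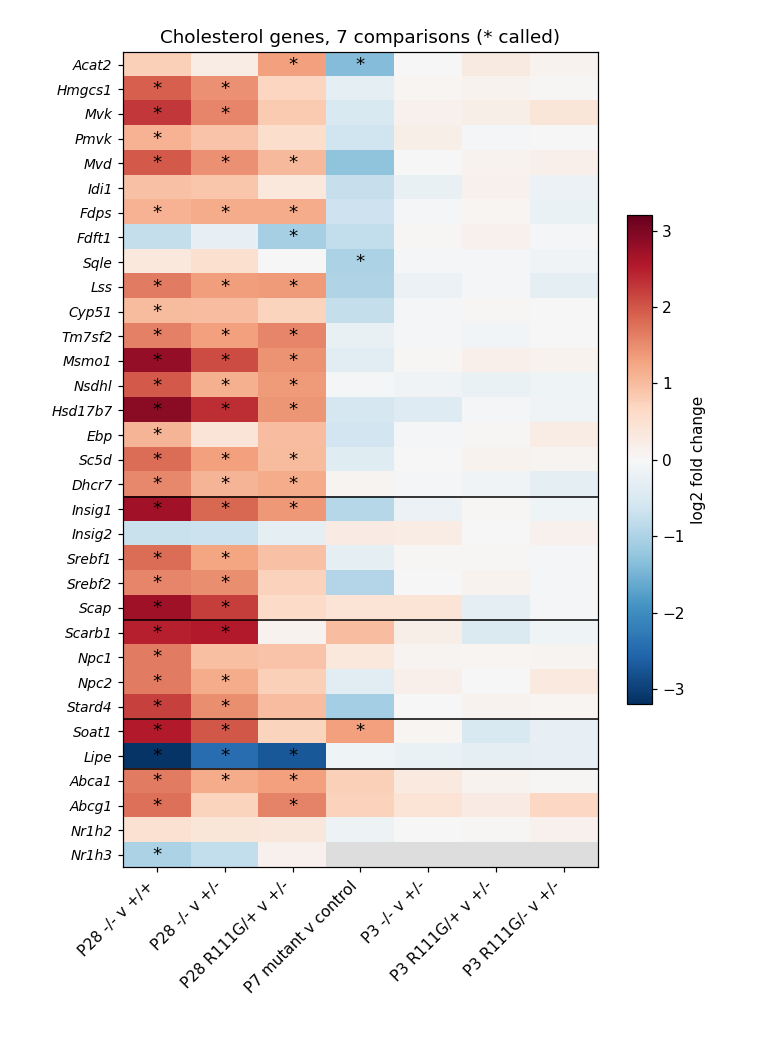
Log2 fold changes (color) of the 33 members (rows, grouped by role: synthesis, sensing, uptake and transport, ester store, export) in 7 comparisons (columns), with TMM scaling. Asterisks mark calls at adjusted p below 0.05 and over 2-fold, and gray marks Nr1h3 where it was not tested. The P28 columns are mostly red with Lipe deep blue, the P3 columns are pale, and the P7 column is mostly blue, and with somatic marker scaling the P28 calls of higher level were lost.

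The sensors and regulators of synthesis were also higher in Dmrt1-/- gonads with TMM, and 4 of the 5 were called against both Dmrt1+/+ and Dmrt1+/-, whereas none was called higher with somatic marker scaling. Insig1, which holds SCAP in the endoplasmic reticulum and is itself an SREBP target, was at 46.8, 35.9 and 37.7 CPM in Dmrt1+/+, 53.0, 76.4 and 80.5 CPM in Dmrt1+/-, 307, 195 and 251 CPM in Dmrt1-/- and 241, 167 and 135 CPM in Dmrt1 R111G/+ gonads. It was called in all 3 comparisons, at 2.68 ± 0.26 (SE, adjusted p = 5.77e-07) against Dmrt1+/+, 1.84 ± 0.25 against Dmrt1+/- and 1.38 ± 0.25 in Dmrt1 R111G/+ against Dmrt1+/-. Its relative Insig2 was at 117, 102 and 116 CPM in Dmrt1+/+ and 71.9, 65.6 and 62.3 CPM in Dmrt1-/- gonads, a change of -0.71 ± 0.14 (SE, adjusted p = 0.000383) within the fold limit. Scap was at 66.6, 64.6 and 49.3 CPM in Dmrt1+/+, 69.2, 83.2 and 98.3 CPM in Dmrt1+/-, 382, 413 and 359 CPM in Dmrt1-/- and 163, 104 and 113 CPM in Dmrt1 R111G/+ gonads, a change of 2.71 ± 0.21 (SE, adjusted p = 8.13e-08) in Dmrt1-/- against Dmrt1+/+. All Dmrt1-/- libraries were above all others, and the Dmrt1 R111G/+ change against Dmrt1+/- of 0.61 was not called. Srebf1 and Srebf2, which encode SREBP1 and SREBP2, changed by 1.79 and 1.56 against Dmrt1+/+ and by 1.27 and 1.49 against Dmrt1+/-, all called. In Dmrt1 R111G/+ against Dmrt1+/- their values were 0.94 and 0.73, within the fold limit. Srebf2 was at 53.8, 68.7 and 45.9 CPM in Dmrt1+/+, 46.1, 59.4 and 67.3 CPM in Dmrt1+/-, 169, 171 and 147 CPM in Dmrt1-/- and 122, 78.7 and 84.0 CPM in Dmrt1 R111G/+ gonads, so the Dmrt1+/+ and Dmrt1+/- libraries overlapped and the Dmrt1-/- libraries lay above them.

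Among uptake and transport genes, Scarb1 separated the Dmrt1-/- gonads from the Dmrt1 R111G/+ gonads. Scarb1, the receptor for cholesterol of high-density lipoprotein, was at 103, 91.9 and 85.4 CPM in Dmrt1+/+, 89.4, 96.4 and 79.3 CPM in Dmrt1+/-, 475, 548 and 511 CPM in Dmrt1-/- and 116, 78.9 and 86.4 CPM in Dmrt1 R111G/+ gonads. Its change was 2.53 ± 0.17 (SE, adjusted p = 3.83e-08) in Dmrt1-/- against Dmrt1+/- and 0.10 ± 0.16 (SE, adjusted p = 0.628) in Dmrt1 R111G/+ against Dmrt1+/-, and the difference between Dmrt1 R111G/+ and Dmrt1-/- was -2.43 ± 0.17 (SE, adjusted p = 1.97e-07). Stard4, a cytosolic carrier of sterol, was called in Dmrt1-/- against Dmrt1+/+ and Dmrt1+/-, at 2.20 and 1.49, and at 0.99 it fell just short in Dmrt1 R111G/+. Npc2 and Npc1, which pass cholesterol out of the lysosome, had changes of 1.65 and 1.66 against Dmrt1+/+, both called, and of 1.18 and 0.97 against Dmrt1+/-, where Npc1 missed the fold limit. Stard4 was at 40.6, 26.4 and 31.6 CPM in Dmrt1+/+, 37.3, 66.0 and 54.8 CPM in Dmrt1+/-, 184, 122 and 137 CPM in Dmrt1-/- and 117, 102 and 90.8 CPM in Dmrt1 R111G/+ gonads. None of these 4 genes was called with somatic marker scaling in Dmrt1-/- gonads, in either direction.

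The ester store genes were called in opposite directions in Dmrt1-/- gonads with TMM, and with somatic marker scaling only the lower call, of Lipe, held. Soat1, which esterifies cholesterol for storage, was at 225, 167 and 192 CPM in Dmrt1+/+, 226, 259.7 and 349 CPM in Dmrt1+/-, 1200.4, 1017 and 1085 CPM in Dmrt1-/- and 502, 383 and 469.8 CPM in Dmrt1 R111G/+ gonads, and it was called higher in Dmrt1-/-, at 2.53 ± 0.21 against Dmrt1+/+ and 1.98 ± 0.20 against Dmrt1+/-. Per kilobase of exon, the mean Soat1 level in Dmrt1-/- gonads was 112 CPM, against 169 for Hmgcs1 and 7.36 for Lipe. Lipe, the hormone-sensitive lipase that hydrolyses cholesterol esters and triglycerides, was at 362, 405 and 408 CPM in Dmrt1+/+, 329, 269.8 and 106 CPM in Dmrt1+/-, 40.4, 36.1 and 53.4 CPM in Dmrt1-/- and 43.7, 29.6 and 31.6 CPM in Dmrt1 R111G/+ gonads. Every Dmrt1-/- and Dmrt1 R111G/+ library was below every Dmrt1+/+ and Dmrt1+/- library, and the changes were -3.14 ± 0.34 (SE, adjusted p = 1.6e-06) in Dmrt1-/- against Dmrt1+/+, -2.43 ± 0.33 against Dmrt1+/- and -2.72 ± 0.33 in Dmrt1 R111G/+ against Dmrt1+/-. Within Dmrt1+/-, the library that was also low in spermatid markers had the lowest Lipe level.

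Among export genes, Abca1, the pump that loads cholesterol onto apolipoproteins, was at 425, 212 and 224 CPM in Dmrt1+/+, 319, 452 and 400.4 CPM in Dmrt1+/-, 823, 829.6 and 1021 CPM in Dmrt1-/- and 1321, 842 and 714 CPM in Dmrt1 R111G/+ gonads. It was called higher in Dmrt1-/- against Dmrt1+/+ (1.66 ± 0.30) and Dmrt1+/- (1.19 ± 0.29) and in Dmrt1 R111G/+ against Dmrt1+/- (1.31 ± 0.29). Abcg1, which exports to high-density lipoprotein, was called against Dmrt1+/+ at 1.77 but not against Dmrt1+/- at 0.71, and was called in Dmrt1 R111G/+ at 1.59. Nr1h2 (LXRβ) had a change of 0.48, and Nr1h3 (LXRα), at 10.5, 11.5 and 9.81 CPM in Dmrt1+/+ and 5.91, 3.93 and 5.39 CPM in Dmrt1-/- gonads, was called lower against Dmrt1+/+ at -1.02 ± 0.25 (SE, adjusted p = 0.00198), but at -0.78 not against Dmrt1+/-. That call was lost without Dmrt1+/+ replicate 2 or Dmrt1-/- replicate 2 and with library totals alone. Abcg1 was at 9.57, 5.23 and 6.11 CPM in Dmrt1+/+, 7.75, 10.8 and 24.1 CPM in Dmrt1+/-, 24.9, 25.6 and 19.9 CPM in Dmrt1-/- and 47.6, 36.8 and 43.3 CPM in Dmrt1 R111G/+ gonads, the last being the highest group. The summed macrophage markers given above were likewise higher in the Dmrt1-/- and Dmrt1 R111G/+ than in the Dmrt1+/+ and Dmrt1+/- gonads, and their part in the values of Abca1 and Abcg1 was not tested.

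**Figure D3:**
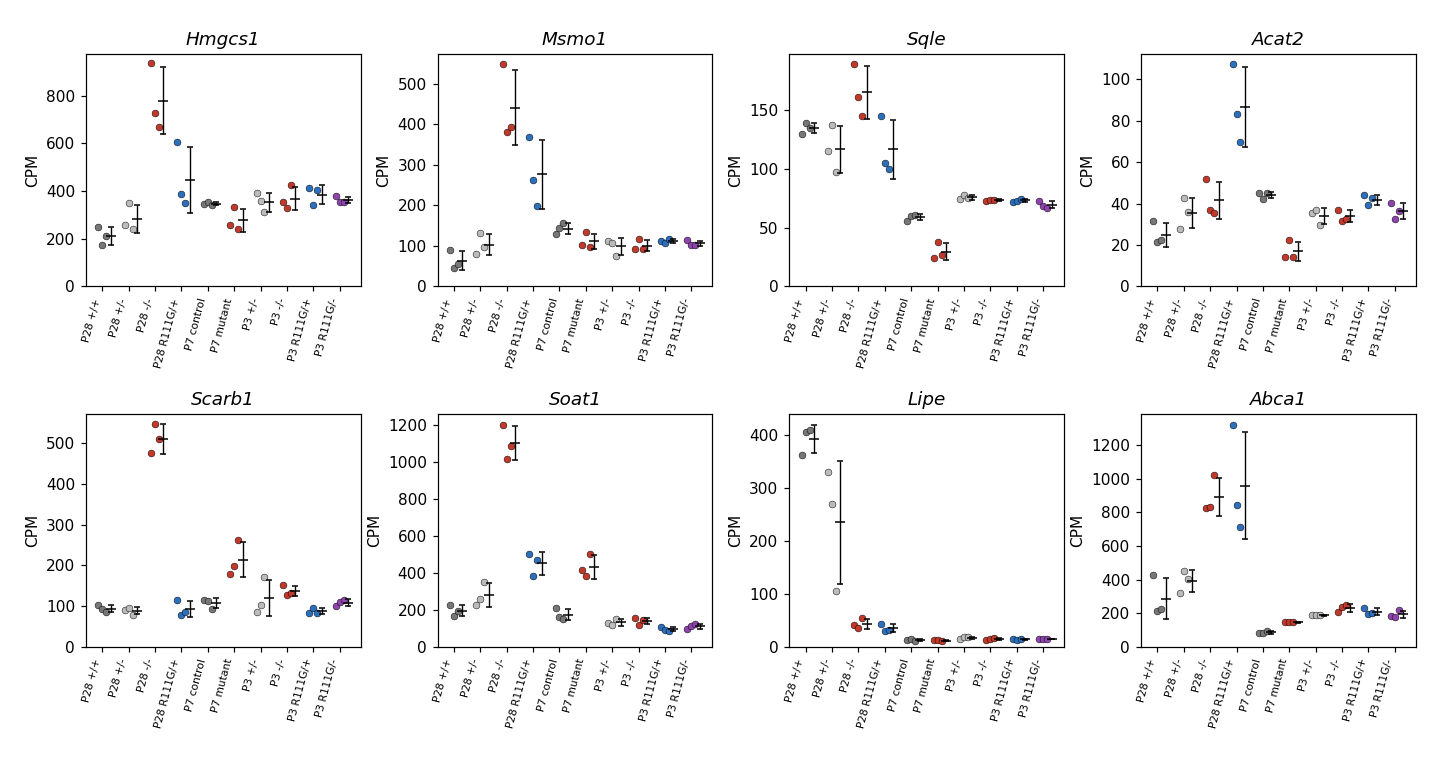
CPM (linear axes from 0, TMM scaling) of 8 members in each library (points), with group mean ± SD (bars to the right of the points), for all 10 groups. Lipe was at 362 CPM or more in P28 Dmrt1+/+ gonads and at most 53.4 in P28 Dmrt1-/- gonads, and Scarb1 was high in P28 Dmrt1-/- gonads only among the P28 groups.

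Heterozygous and mutant gonads were compared within P28 as well. No member was called in Dmrt1+/- against Dmrt1+/+, as for all genes (0%), and DESeq2 also called no member. An unadjusted p below 0.05 was reached by 15 members, beside 3769 of 20952 genes. The median was 0.47 for members and -0.05 for all genes with TMM, and -0.05 and -0.58 with somatic marker scaling. In Dmrt1 R111G/+ against Dmrt1-/- gonads, with TMM, 1 member was called higher, Acat2 at 1.08 ± 0.23 (SE, adjusted p = 0.00177), and 3 lower, Scarb1, Scap (-1.59) and Soat1 (-1.27), where 27.6% and 10.1% of genes were called. Acat2 was at 108, 83.1 and 69.6 CPM in Dmrt1 R111G/+ and 52.0, 37.1 and 35.5 CPM in Dmrt1-/- gonads. With somatic marker scaling, 10 members were called higher and 1 lower (52.8% and 3.34% of genes), and the median of all genes was 1.20. Leaving out the Dmrt1+/- library low in spermatid markers and the Dmrt1 R111G/+ library high in macrophage markers gave 25 higher and 2 lower members in Dmrt1-/- against Dmrt1+/+, 22 and 1 against Dmrt1+/-, 13 and 2 in Dmrt1 R111G/+ against Dmrt1+/-, and 0 and 6 in Dmrt1 R111G/+ against Dmrt1-/-. Of the 21624 genes tested there, 5723 and 8831, 4721 and 8502, 1319 and 6208, and 6401 and 2789 were called, in the same order.

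**Figure D4:**
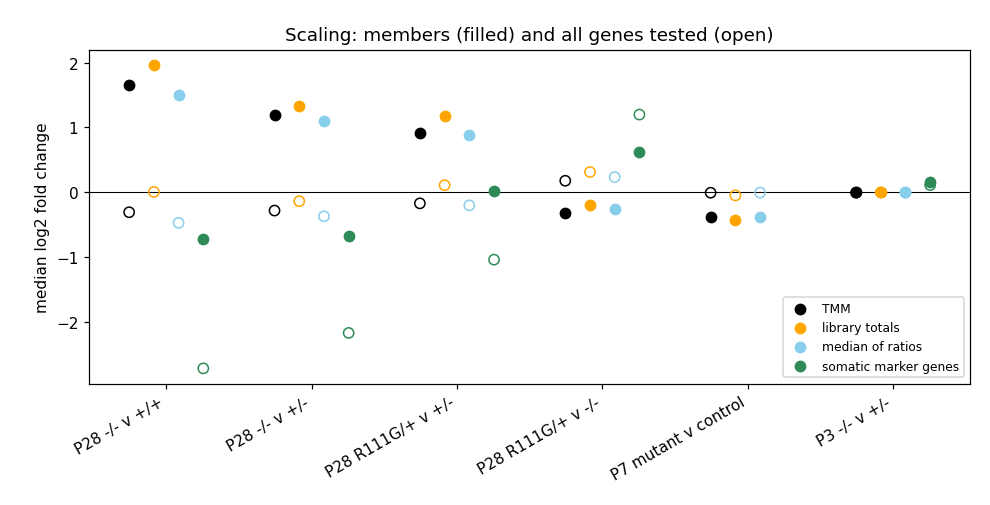
Median log2 fold change of the members (filled) and of all genes tested (open) in 6 comparisons under 4 scalings (colors). In the P28 Dmrt1-/- comparisons both medians shift down together with somatic marker scaling, from 1.65 to -0.71 for members against Dmrt1+/+. A change of scaling shifts all genes by nearly the same amount, so the place of members above all genes could hardly change. The P7 libraries were not scaled on somatic markers.

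In isolated P7 Sertoli cells, few members were called. Of the 32 members tested, Soat1 was called higher and Acat2 and Sqle lower in mutant cells, where 2.56% of 14013 genes were called higher and 2% lower. The set's median log2 fold change was -0.38 and that of all genes -0.01. Of the 18 synthesis genes, 17 had a negative change, with a median of -0.63. Soat1 was at 207, 164 and 148 CPM in controls and 414, 379.9 and 503 CPM in mutants, with no overlap, a change of 1.32 ± 0.19 (SE, adjusted p = 0.00726). Acat2 was at 45.1, 42.3 and 44.9 CPM in controls and 14.3, 22.4 and 14.2 CPM in mutants, a change of -1.39 ± 0.22 (SE, adjusted p = 0.0102), with the paralog caveat above. Sqle was at 55.8, 59.8 and 60.8 CPM in controls and 24.3, 37.7 and 26.3 CPM in mutants, a change of -1.003 ± 0.20 (SE, adjusted p = 0.0265) that sat at the fold limit and was lost without mutant replicate 1 or 3 or control replicate 1 or 3. Scarb1, at 115, 112 and 93.8 CPM in controls and 179.7, 199 and 262 CPM in mutants, had a change of 0.996 ± 0.19 (SE, adjusted p = 0.0201) just inside the fold limit. Srebf2 and Insig1 had changes of -0.93 ± 0.16 (SE, adjusted p = 0.0156) and -0.91 ± 0.22 (SE, adjusted p = 0.0502). Mvd had a change of -1.30 ± 0.37 (SE, adjusted p = 0.0787), with 14.0, 10.4 and 12.8 CPM in controls and 4.70, 7.59 and 2.95 CPM in mutants. Marker sums of several cell types differed between these groups. The 9 stromal markers summed to 126, 446 and 137 CPM in mutants and 35.8, 219.8 and 43.9 CPM in controls, the 10 granulosa markers to 3349 to 3934 and 1708 to 2774 CPM, and the 13 Sertoli markers, Dmrt1 among them, to 3420.0 to 4747 and 5674 to 6270.1 CPM. The 11 spermatogonial markers summed to 104 to 169 CPM in mutants and 189 to 354 CPM in controls, with 3 called lower, and the 9 endothelial markers to 32.1 to 56.9 and 13.6 to 21.2 CPM, with 1 of the 6 tested called higher, and neither sum overlapped between the groups. Macrophage markers summed to 6.90 to 10.0 and 6.60 to 10.1 CPM, with 2 and 3 of the 12 at 0. The part of these cells in the result was not tested. Without replicate 2 of both groups, the libraries with most stromal marker RNA, 5 members were called lower (Acat2, Mvd, Sqle, Insig1 and Stard4) and Soat1 higher. In that fit 318 of 14598 genes were called lower and 405 higher.

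At P3, no member was called in Dmrt1-/-, R111G/+ or R111G/- against Dmrt1+/- gonads, where 0.511%, 0.133% and 0.196% of the 15837 genes tested by edgeR were called. At an unadjusted p below 0.05 there were 4, 3 and 2 members, beside 1397, 913 and 1069 of the 15837 genes. DESeq2 called no member. Median changes were 0.004, 0.033 and -0.002. Hmgcs1 was at 391, 357 and 312 CPM in Dmrt1+/- and 354, 328 and 424 CPM in Dmrt1-/- gonads at this age, and the sum of the synthesis genes was 923 to 1031 CPM in Dmrt1+/- and 952 to 1042 CPM in Dmrt1-/-.

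Age and genotype were then put in 1 model of all 30 libraries, in which age cannot be told apart from other differences between the collections. In Dmrt1+/- gonads, Fdft1, Sc5d, Insig2, Soat1, Lipe, Abca1 and Nr1h3 were called higher at P28 than at P3 and Srebf1 and Scap lower, where 35.7% and 18.9% of genes were called. The call of Abca1 was lost without P28 replicate 2 or 3 or P3 replicate 1, 2 or 3, and that of Soat1 without P28 replicate 2 or 3 or P3 replicate 1 or 2, and both were lost with library totals alone. Srebf1 lost its call with DESeq2 and with its size factors, and Srebf1 and Scap lost theirs with somatic marker scaling. Lipe rose from 15.2, 17.9 and 19.0 CPM at P3 to 329, 269.8 and 106 CPM at P28, a change of 3.76 ± 0.27 (SE, adjusted p = 2.32e-12). In Dmrt1-/- gonads 18 members were called higher at P28 (10.9% of genes) and none lower (2627 of 21696 genes). The 18 were Hmgcs1 (1.08), Idi1 (1.82), Fdps (1.05), Fdft1 (1.59), Sqle (1.17), Lss (1.65), Cyp51 (1.79), Tm7sf2 (2.15), Msmo1 (2.13), Nsdhl (1.34), Hsd17b7 (2.25), Sc5d (3.35), Insig1 (1.70), Scarb1 (1.90), Soat1 (2.99), Lipe (1.54), Abca1 (1.94) and Nr1h3 (2.38). In R111G/+ gonads 13 were called higher (27.4% of genes) and none lower (2966 of 21696 genes). The 13 were Acat2 (1.05), Lss (1.53), Cyp51 (1.41), Tm7sf2 (2.43), Msmo1 (1.30), Nsdhl (1.63), Sc5d (2.91), Dhcr7 (1.07), Insig2 (1.02), Soat1 (2.24), Lipe (1.29), Abca1 (2.21) and Nr1h3 (4.43). On somatic marker factors the member counts were 14 higher and 0 lower in Dmrt1+/- (53% and 7.31% of genes), 2 and 3 in Dmrt1-/- (3.49% and 52.9%), and 24 and 0 in R111G/+ (44.6% and 5.98%). Nr1h3 had too few counts to be tested in the fits of P3 gonads or P7 cells alone, so its values in this model rest on low counts there. The genotype effect itself differed between ages. The Dmrt1-/- effect at P28 minus that at P3 was called higher for 21 members and lower for Nr1h3 and Lipe (17.8% and 23.1% of genes), with Hsd17b7 at 2.77 ± 0.33 (SE, adjusted p = 1.22e-07), Scarb1 at 2.34 ± 0.27 and Lipe at -2.22 ± 0.35. For R111G/+, 11 were called higher and Fdft1 and Lipe lower (4.15% and 9.24%). The count of higher members was 17 without Dmrt1+/- P28 replicate 3 (1687 of 22395 genes) and 17 without R111G/+ P28 replicate 3 (1478 of 22390 genes). With somatic marker scaling no member was called higher and 16 lower for Dmrt1-/- (1.11% and 66.9% of genes), and 2 and 1 for R111G/+ (0.814% and 4.61%). Whole P28 gonads and isolated P7 cells were compared in the same model, a contrast chosen after their values were seen. The P28 Dmrt1-/- effect against Dmrt1+/- minus the P7 mutant effect was called higher for 23 members and lower for Nr1h3 and Lipe (15.4% and 23.9% of genes), and 16 of the 18 synthesis genes were among the higher ones.

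The related lists are given with TMM, and the shares of all genes called were 26.1% higher and 40.5% lower in Dmrt1-/- against Dmrt1+/+, 19.8% and 38.7% against Dmrt1+/-, 6.72% and 28.1% in Dmrt1 R111G/+ against Dmrt1+/-, and 2.56% and 2% at P7. Of 36 other sterol pathway genes tested at P28, 24 were called higher and 4 lower in Dmrt1-/- against Dmrt1+/+. The counts were 16 and 4 against Dmrt1+/-, and 4 and 2 in Dmrt1 R111G/+ against Dmrt1+/-. None of 33 was called at P7, where 10 had an unadjusted p below 0.05, beside 3003 of 14013 genes. Those with the smallest adjusted p in Dmrt1-/- against Dmrt1+/- were the lipoprotein receptors Lrp8 (-6.43 ± 0.31) and Vldlr (4.95 ± 0.38), the sterol carrier Gramd1c (-4.38 ± 0.41) and the ubiquitin ligase Rnf139 (-2.87 ± 0.27). Of 13 fatty acid synthesis genes, which SREBP1 mainly controls, 9 were called higher and 1 lower in Dmrt1-/- against Dmrt1+/- and 3 higher in Dmrt1 R111G/+, with Elovl6 at 4.24 ± 0.28 and Acss2 at -2.33 ± 0.18 in Dmrt1-/-, and at P7 Thrsp was called at 2.31 ± 0.44. Of 12 steroidogenesis genes, 6 were called higher and 2 lower in Dmrt1-/- against Dmrt1+/-, and 6 and 1 in Dmrt1 R111G/+ against Dmrt1+/-, with Hsd17b1 at 5.70 ± 0.60 and Hsd17b3 at -7.87 ± 0.88 in Dmrt1-/-. With somatic marker scaling, the Dmrt1-/- against Dmrt1+/- counts became 1 higher and 17 lower for the sterol pathway, 1 and 3 for fatty acid synthesis, and 2 and 6 for steroidogenesis, where 2.18% of all genes were called higher and 75.2% lower. At P7, Star, which moves cholesterol into mitochondria, was called higher at 1.40 ± 0.30 among 7 tested.

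A Hi-C interaction list for P7 Dmrt1-/- Sertoli cells, with pooled replicates and no control genotype, held 4291 interactions between 10 kb anchors. Of the 33 members, 9 lay within 10 kb of an anchor, against 26.9% of 21897 protein-coding genes, so the share was near that of all genes. They were Mvk, Idi1, Fdps, Sc5d, Scarb1, Stard4, Soat1, Lipe and Abca1. Scarb1, at chr5:125277087-125341094 on GRCm38, had its anchor at chr5:125270001-125280000 and its partner 370 kb away at Zfp664. Lipe, at chr7:25379527-25398710, had its partner 240 kb away at Pou2f2, and Sc5d, at chr9:42251595-42264256, 250 kb away at Sorl1. Without a control list, no difference between genotypes can be given.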

How the data were processed

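RNA-seq was analysed in 30 libraries, 3 in each of 10 groups. According to the study's methods, reads were trimmed with Trim Galore, aligned to GRCm38 with STAR and counted by strand over GENCODE genes with RSubread, and the submitters' processing notes give Trim Galore 0.6.0, cutadapt 1.18 and STAR 2.7.2a. The authors deposited raw counts per gene. The median library held 8776697 counts (range 5043838 to 12792811). The deposited Hi-C interaction list was made by the authors with HiC-Pro from pooled replicates. ChIP-seq files were not used here.

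Counts were tested with edgeR 4.0.16 (R 4.3.3) by the quasi-likelihood F test after filterByExpr and TMM scaling, with Benjamini-Hochberg adjustment over all genes tested. Each age and tissue had its own fit, and ages were compared in a fit of all 30 libraries. A gene was called at an adjusted p below 0.05 and over 2-fold. The standard error was taken from the fold change and its F statistic. Alternatives were library totals, DESeq2 1.42.0 and its size factors, factors from 35 somatic marker genes, no filter, no fold limit, fits of fewer groups, a replicate block and leaving out each library, as well as libraries that stood apart. The scripts were tested on simulated data. Gene positions came from GENCODE M21 on GRCm38, and promoters from RefSeq. All members called in a comparison were named, and at P28 the others too. Of related lists, up to 4 genes with the smallest adjusted p were named. The members and lists were chosen with earlier results of these data known.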

Additional observations from a re-analysis of the deposited data

Results flagged for a closer look

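The change of the genotype effect with age was past the threshold of its own interaction test, edgeR on all 30 libraries, for 23 members. The values are the log2 effect of Dmrt1-/- against Dmrt1+/- at P28 minus that at P3. The effect was higher at P28 for Hmgcs1 1.40, Mvk 1.41, Mvd 1.48, Idi1 1.14, Fdps 1.23, Lss 1.52, Cyp51 1.03, Tm7sf2 1.35, Msmo1 2.07, Nsdhl 1.25, Hsd17b7 2.77, Sc5d 1.31, Dhcr7 1.15, Insig1 2.04, Srebf1 1.25, Srebf2 1.49, Scap 1.78, Scarb1 2.34, Npc2 1.03, Stard4 1.47 and Soat1 1.92. It was lower for Lipe -2.22 and Nr1h3 -1.67. Nr1h3 had too few counts to be tested in the fit of P3 gonads alone. With somatic marker scaling none of the higher ones was called higher.

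The corresponding interaction for R111G/+ against Dmrt1+/- was past the threshold for 13 members. It was higher at P28 for Fdps 1.08, Lss 1.41, Tm7sf2 1.63, Msmo1 1.24, Nsdhl 1.54, Hsd17b7 1.42, Dhcr7 1.28, Insig1 1.33, Soat1 1.17, Abca1 1.16 and Abcg1 1.31, and lower for Fdft1 -1.23 and Lipe -2.47.

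The effect of DMRT1 loss also differed between P28 gonads (Dmrt1-/- against Dmrt1+/-) and P7 Sertoli cells (mutant against control) for 25 members. This contrast was chosen after the data were seen, and it compares whole organs with isolated cells at another age. It also compares Dmrt1-/- animals with deletion by Dhh-Cre. Tissue, age and kind of deletion therefore cannot be told apart. The log2 difference was higher for Acat2 1.62, Hmgcs1 1.78, Mvk 2.04, Pmvk 1.54, Mvd 2.75, Idi1 1.61, Fdps 1.84, Sqle 1.50, Lss 2.31, Cyp51 1.75, Tm7sf2 1.53, Msmo1 2.46, Nsdhl 1.16, Hsd17b7 2.88, Ebp 1.02, Sc5d 1.68, Insig1 2.75, Srebf1 1.55, Srebf2 2.43, Scap 1.77, Scarb1 1.54, Npc2 1.55 and Stard4 2.59. It was lower for Lipe -2.31 and Nr1h3 -2.20. Nr1h3 had too few counts to be tested in the fit of P7 cells alone.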

How the results depend on the processing

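Over the named genes, 230 results were recomputed under 3601 alternatives. Of these, 3234 were unchanged, meaning a call that kept its direction, or an uncalled value that stayed uncalled and within 1 SE. A further 160 lost the call without a change of sign, 87 gained one, 61 changed sign, and 59 stayed uncalled but moved by over 1 SE. The 61 hold calls that changed sign, whether or not still called, and uncalled values that gained a call in the opposite direction. Insig1 against Dmrt1+/-, at -0.0046, was thus no longer called. All 61 changes of sign came with factors from somatic markers, on which the members sank with all genes, and the values were these. For P28 Dmrt1-/- against Dmrt1+/+ they were Hmgcs1 -0.47, Mvk -0.095, Pmvk -1.26, Mvd -0.40, Fdps -1.34, Lss -0.73, Cyp51 -1.37, Tm7sf2 -0.70, Nsdhl -0.39, Ebp -1.25, Sc5d -0.58, Dhcr7 -0.83, Srebf1 -0.58, Srebf2 -0.83, Npc1 -0.73, Npc2 -0.71, Stard4 -0.17, Abca1 -0.66 and Abcg1 -0.55. For P28 Dmrt1-/- against Dmrt1+/- they were Acat2 -1.61, Hmgcs1 -0.39, Mvk -0.33, Mvd -0.37, Fdps -0.69, Sqle -1.36, Lss -0.50, Tm7sf2 -0.51, Nsdhl -0.69, Ebp -1.43, Sc5d -0.53, Dhcr7 -0.74, Insig1 -0.0046, Srebf1 -0.60, Srebf2 -0.36, Npc2 -0.66, Stard4 -0.34, Abca1 -0.67, Abcg1 -1.13 and Nr1h2 -1.47. For the age and Dmrt1-/- interaction they were Hmgcs1 -0.85, Mvk -0.83, Mvd -0.73, Idi1 -1.11, Fdps -0.97, Lss -0.71, Cyp51 -1.20, Tm7sf2 -0.85, Msmo1 -0.14, Nsdhl -0.97, Sc5d -0.94, Dhcr7 -1.09, Insig1 -0.21, Srebf1 -0.97, Srebf2 -0.76, Scap -0.45, Npc2 -1.18, Stard4 -0.76 and Soat1 -0.29. For Dmrt1-/- P28 against P3 they were Hmgcs1 -0.23, Fdps -0.22 and Sqle -0.13. With somatic marker factors, the counts of members called higher and lower were 0 and 12 for Dmrt1-/- against Dmrt1+/+, 0 and 9 against Dmrt1+/-, 0 higher for R111G/+ against Dmrt1+/-, 10 and 1 for R111G/+ against Dmrt1-/-, 14 and 0 for Dmrt1+/- P28 against P3, 2 and 3 for Dmrt1-/- P28 against P3, 24 higher for R111G/+ P28 against P3, 0 and 16 for the Dmrt1-/- interaction and 2 and 1 for the R111G/+ interaction. Brackets in what follows give the calls over all genes, of 20952 tested at P28, 14013 at P7 and 21696 across ages unless stated. Without a fold limit the members called were 4 lower (9613) for Dmrt1-/- against Dmrt1+/+, 3 lower (9334) against Dmrt1+/-, 25 higher (3541) for R111G/+ against Dmrt1+/-, 5 and 9 (6880 and 3941) for R111G/+ against Dmrt1-/- and 4 and 4 (466 and 352) at P7. Across ages they were 11 and 9 (9202 and 6332) for Dmrt1+/- P28 against P3, 22 higher (7433) for R111G/+ P28 against P3 and 17 higher (1613) for the R111G/+ interaction. With library totals alone there was 1 lower (7858) for Dmrt1-/- against Dmrt1+/+ and 1 (5036) for R111G/+ against Dmrt1+/-, 3 higher (6224) for R111G/+ against Dmrt1-/-, 1 lower (4703) for the Dmrt1-/- interaction, and 19 higher and 1 lower (2108 and 1341) for the R111G/+ interaction. With DESeq2 size factors Dmrt1+/- P28 against P3 had 1 lower (3552). DESeq2 itself gave 4 lower at P7 (429 of 15850) and 1 lower for Dmrt1+/- P28 against P3 (3660 of 27070). With no filter on low counts there was 1 higher for Dmrt1+/- against Dmrt1+/+, Abcg1 (252 of 37880). In the same fit there was 1 lower (6028) for R111G/+ against Dmrt1+/- and 3 higher (7694) for R111G/+ against Dmrt1-/-. There were also 4 lower at P7 (645 of 30703) and 1 lower for the Dmrt1-/- interaction (5496 of 41204). With 2 groups only, R111G/+ against Dmrt1+/- had 1 lower (4569 of 19311). The cause was not tested. Without 1 replicate at a time, brackets give the range over all genes, of 21554 to 21748 tested at P28, 14160 to 14761 at P7 and 22342 to 22584 across ages. The member ranges were 1 to 2 lower (8630 to 8869) for Dmrt1-/- against Dmrt1+/+, 1 to 2 lower (5013 to 6526) for R111G/+ against Dmrt1+/- and 1 to 3 higher (5210 to 6973) for R111G/+ against Dmrt1-/-. At P7 they were 1 to 2 higher (121 to 574) and 1 to 4 lower (153 to 415). Across ages they were 3 to 6 lower (4424 to 5124) for Dmrt1+/- P28 against P3, with 6 without P28 Dmrt1+/- replicate 3, and 1 to 2 lower (4237 to 4852) for the Dmrt1-/- interaction. For the R111G/+ interaction they were 9 to 17 higher (612 to 1687) and 1 to 2 lower (1256 to 2194). Among settings chosen after seeing the data, leaving out the P28 libraries that stood apart gave 0 higher and 6 lower for R111G/+ against Dmrt1-/- (6401 and 2789 of 21624). Leaving out the stromal-rich P7 libraries gave 5 lower (318 of 14598). No label says whether replicate numbers pair the samples, and the main fits treated the libraries as unpaired. At P7 the correlations between same-numbered libraries were 0.505, 0.225 and -0.037. With a replicate block the counts were 25 higher and 2 lower (5444 and 8467) for Dmrt1-/- against Dmrt1+/+ and 20 and 1 (4101 and 8064) against Dmrt1+/-. They were 12 and 2 (1248 and 5689) for R111G/+ against Dmrt1+/- and 1 and 3 (352 and 283) at P7. Of the 33 members, 5 had a Hi-C anchor in the gene body (19.1% of genes) and 18 within 50 kb (46.9%). The looser sterol element occurred in 2 of the 26 members with a promoter (3.15% of genes). At P7, where Mvd was at 2.95 to 14.0 CPM, its SE was 0.37, against 0.16 for the more abundant Srebf2.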
